A study of Mus musculus with 44 samples.

Results

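The genes described here are 10 transcripts of hepatic stellate cells and of the myofibroblasts they can become: Acta2, Tagln, Myl9, Des, Pdgfra, Pdgfrb, Lrat, Lox, Loxl2 and Tgfb1. They were chosen by name, and all 10 were found among the 35249 genes of a table of raw read counts from mouse liver. The counts came from total RNA sequencing of 3 genotypes on 3 diets. Besides wild type animals (WT) there were Ripk3-/- animals, called Ripk3KO, and Mlkl-/- animals, called MlklKO, and the labels name no promoter, Cre driver or strain for either knockout. RIPK3 is a kinase that activates MLKL, and MLKL ruptures the plasma membrane in necroptosis, a lytic form of programmed cell death.

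Mice entered the study at 2 months of age and were fed for 6 months. The diets were normal chow (control), CD-LFD and CD-HFD, abbreviations for a choline-deficient diet low or high in fat. WT groups held 6 libraries on each diet. Ripk3KO groups held 6 libraries on control, 3 on CD-LFD and 4 on CD-HFD, and MlklKO groups held 6 on control, 4 on CD-LFD and 3 on CD-HFD. The labels do not say that each library came from a different animal, so the p-values measure the spread between libraries.

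Hepatic stellate cells lie between the sinusoidal endothelium and the hepatocytes and, at rest, store vitamin A as retinyl esters. When the liver is injured they can lose these stores, divide in response to platelet-derived growth factor (PDGF), take on a contractile cytoskeleton and lay down collagen, which lysyl oxidases then crosslink. Transforming growth factor beta (TGF-beta) is the best-known signal for this change. In whole liver, a change in the number of these cells and a change in RNA per cell cannot be told apart.

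Contractile genes of smooth muscle and myofibroblasts are classic targets of serum response factor, which binds the CArG box, and the sequences upstream of Acta2 and Myl9 are shown because Acta2 was called between diets and Myl9, a gene of the same contractile apparatus, was not. Both are the 250 bases before the annotated start site, from RefSeq on GRCm38.p6, printed 5′ to 3′ on the gene's strand. Capitals mark CArG boxes (CC, a core of 6 bases and GG, with all core bases A or T, or all but 1) and the 6-letter TEAD motif CATTCC or its reverse complement.
Acta2, chr19:34255374-34255623, minus strand: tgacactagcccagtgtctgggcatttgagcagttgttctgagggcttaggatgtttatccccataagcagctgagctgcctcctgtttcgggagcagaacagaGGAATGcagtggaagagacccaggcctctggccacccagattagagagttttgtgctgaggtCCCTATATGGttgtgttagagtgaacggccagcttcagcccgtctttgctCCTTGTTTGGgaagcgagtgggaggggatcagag
Myl9, chr2:156775214-156775463, plus strand: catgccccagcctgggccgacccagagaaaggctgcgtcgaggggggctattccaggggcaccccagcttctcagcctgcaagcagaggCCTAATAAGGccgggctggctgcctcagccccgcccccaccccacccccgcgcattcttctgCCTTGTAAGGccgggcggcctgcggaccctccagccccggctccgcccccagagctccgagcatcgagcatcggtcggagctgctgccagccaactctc

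The window of Acta2 held 2 CArG boxes with 1 core base C or G, at positions -84 to -75 and -34 to -25 from the start site, and 1 CATTCC motif on the opposite strand at -146 to -141. That of Myl9 held 1 CArG box with a core of A and T only, at -161 to -152, and 1 with a single C or G in its core, at -99 to -90. Windows of 300 bases (250 before and 50 after the start) were in the RefSeq table for 32851 promoters. A CArG box with an A and T core was in 1.63% of them, one with 1 core base changed in 8.50%, and CATTCC on either strand in 14.7%. Of the other genes, windows of Lrat, Des, Pdgfra and Tgfb1 were searched. No window was available for Tagln and Loxl2, and Pdgfrb and Lox were left out of the search. Lrat, the enzyme that makes retinyl esters, had 1 CArG box with 1 core base changed and 1 CATTCC, and Des, Pdgfra and Tgfb1 had none of these motifs. A match describes the letters only, and no binding was measured.

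Total counts were 2476268 to 12471844 in 43 libraries and 88204703 in WT CD-LFD replicate 3. On control Ripk3 stood at 0 to 1.01 CPM (counts scaled to the library total) in Ripk3KO and 0.439 to 4.78 in WT, overlapping, with the 1.01 of replicate 5 near the WT median of 1.08. On CD-HFD it stood at 0 to 0.206 CPM against 2.62 to 5.94. Mlkl stood at 1.24 to 2.61 CPM in MlklKO and 2.02 to 5.50 in WT on control. On CD-HFD it stood at 3.55, 6.02 and 14.4 CPM in MlklKO, the 14.4 of replicate 1 lying near the WT range of 17.2 to 22.6. All counts of the 10 genes called in comparisons that include Ripk3KO control replicate 5 or MlklKO CD-HFD replicate 1 were within 1 call without it. WT control replicates 5 and 6 stood apart from replicates 1 to 4: the chi-square per degree of freedom of their counts was 48.2 to 97.7 against those and 16.3 between the pair, and 0.557% and 0.757% of their counts lay in predicted genes, against 0.321% to 0.367%. Without the pair 7 genes on CD-HFD and 6 on CD-LFD were called in WT, the same numbers as with it. Replicates 5 and 6 of WT CD-LFD also had the highest such shares of their group, 0.656% and 0.670% against 0.382% to 0.495%. No fit left those out together, so their part in the CD-LFD calls was not tested. A split of the libraries by their clock genes (the ratio of Arntl to Dbp) put 4 of 6 WT control, 6 of 6 WT CD-LFD, 1 of 6 WT CD-HFD and 0 knockout libraries in the high class; the labels give no time of collection. All 10 markers of stellate cells were detected in every library, so the labelled tissue held their RNA.

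Of the 10 genes, 9 had enough counts to be tested, and Tagln did not. Lox had 10 or more counts in 18 libraries and no more than 3 in any control library, so it passed the filter only through the groups where it is high. Its calls, against control or between CD-HFD and CD-LFD, are therefore no test support. Counts over the 9 are a description, and those of the main fit between diets are given also without Lox. The test was edgeR's quasi-likelihood F test with Benjamini-Hochberg adjustment over all 14862 genes tested, and a gene is called higher or lower at an adjusted p under 0.05. Expression is given in CPM scaled by the trimmed mean of M values (TMM). The highest CPM among these genes in any library was 54.8, for Pdgfrb. Compared per kilobase of exon, WT livers on control had most RNA of Myl9 (2.75 ± 1.72 CPM per kb, SD, n = 6), Lrat (2.46 ± 1.13) and Tgfb1 (2.19 ± 0.322), whose means differed by less than the SD of Myl9 or of Lrat. On CD-HFD the order was led by Pdgfrb (7.17 ± 1.68), Tgfb1 (4.92 ± 1.06) and Des (4.08 ± 1.0). Tagln was last but for Lox on control (0.256 ± 0.242 against 0.0349 ± 0.0540) and last on CD-HFD (0.143 ± 0.123).

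The first question was how 6 months of the choline-deficient diets changed these transcripts in WT livers. On CD-HFD the PDGF receptors, both lysyl oxidases, desmin, smooth muscle actin and TGF-beta 1 were higher than on control, from 2.25-fold for Tgfb1 to 5.55-fold for Loxl2 and more for Lox, while Myl9 and Lrat did not pass the test. That is 7 of 9 tested genes higher and 0 lower, against 23.5% of all genes tested called higher and 24.1% called lower. In 5 of the 9 every CD-HFD library exceeded every control library, which held for 14.3% of all genes tested. Their median log2 difference was 1.67, and that of all genes tested -0.07. On CD-LFD 6 of 9 were higher and 0 lower (13.7% and 14% of all genes), 3 of the 9 had no overlap (5.04% of all genes), and the median was 0.97 against -0.03. Without Lox, 6 of 8 were called higher on CD-HFD, 4 of them with no overlap, and 5 of 8 on CD-LFD, 2 of them with no overlap, with medians of 1.48 and 0.90.

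**Figure D1:**
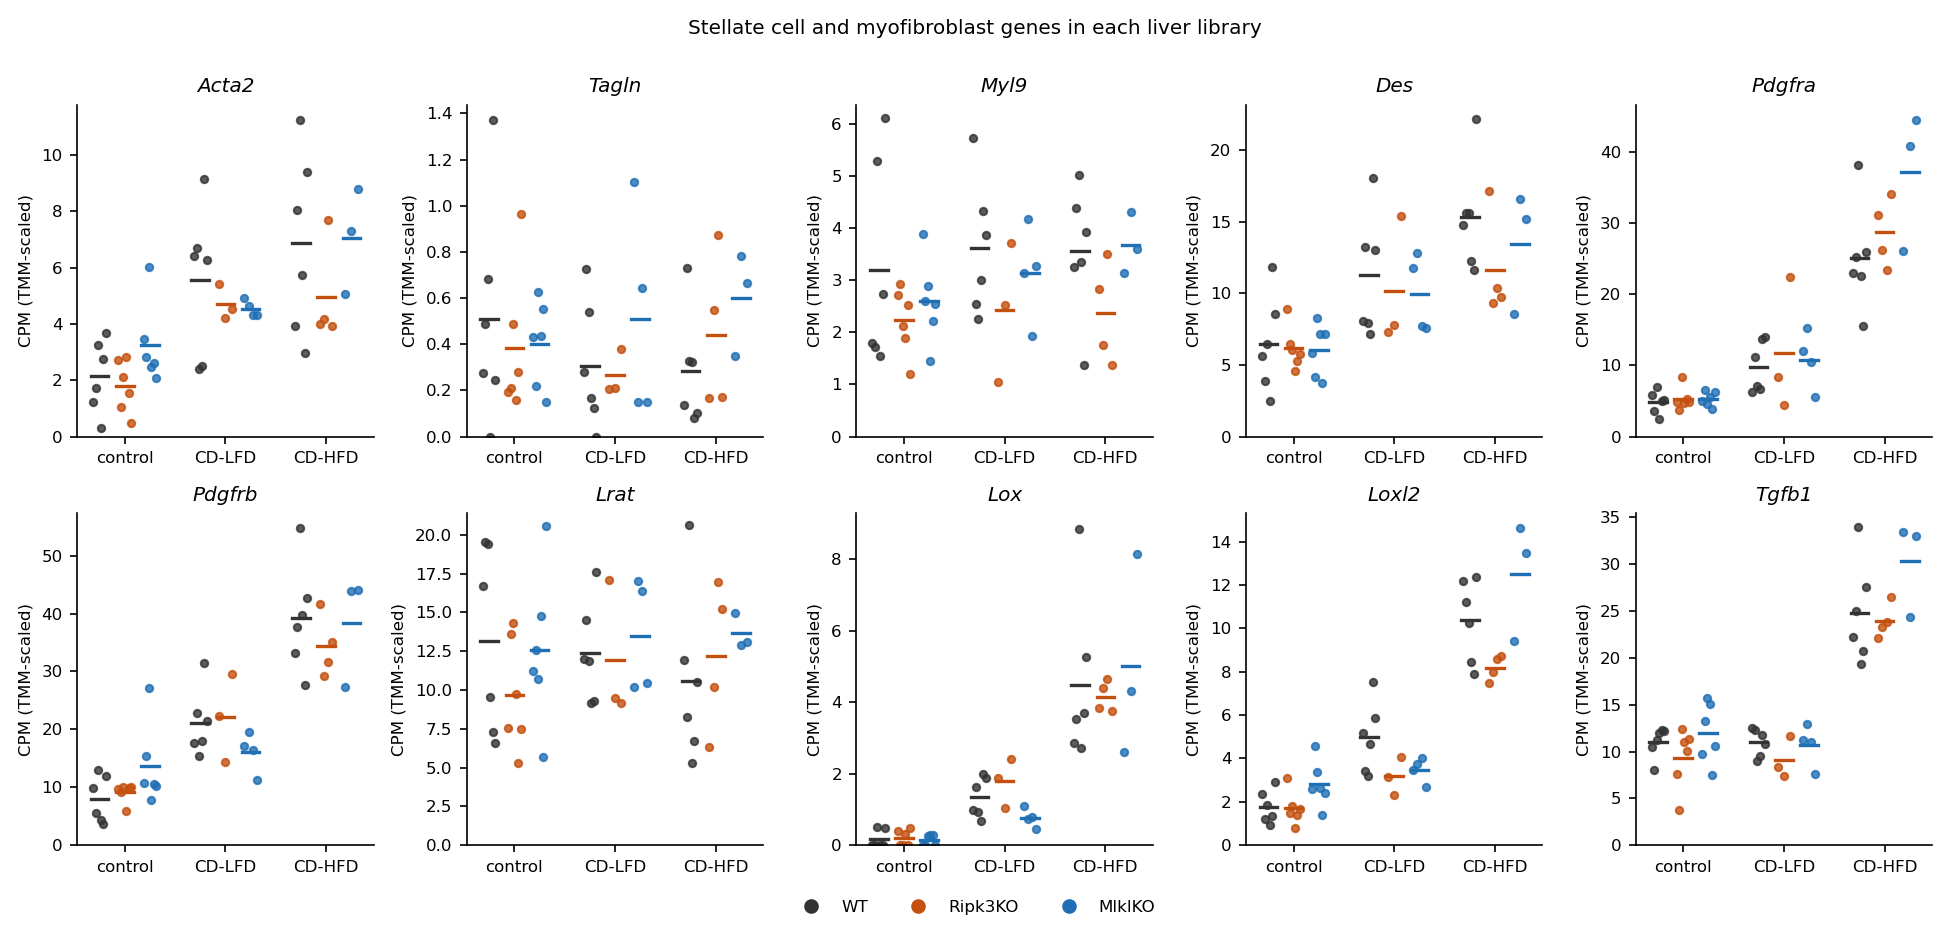
Expression of the 10 genes (CPM scaled by TMM, linear axis from 0) in each of 44 liver libraries by diet, with points coloured by genotype and a line at each group's mean. Pdgfra, Pdgfrb, Lox, Loxl2 and Tgfb1 separate WT control from WT CD-HFD completely, while Lrat, Myl9 and Tagln overlap between all diets.

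The receptors came first. Pdgfra encodes the alpha receptor for PDGF, found on stellate cells and fibroblasts. It measured 2.46, 5.08 and 6.98 CPM (lowest, median, highest, n = 6) on control, 6.28, 9.17 and 14.0 on CD-LFD, and 15.5, 24.1 and 38.2 with CD-HFD. The CD-HFD libraries lay above all others, and CD-LFD overlapped control in 2 of 6. The log2 difference from control was 2.33 ± 0.29 (SE) on CD-HFD (adjusted p = 1.6e-08, edgeR) and 0.97 ± 0.30 on CD-LFD (adjusted p = 0.013, edgeR).

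Pdgfrb encodes the beta receptor, through which PDGF-B drives stellate cell division and migration. It measured 3.65, 7.71 and 12.9 CPM on control, 15.4, 19.7 and 31.5 on CD-LFD, and 27.7, 38.7 and 54.8 with CD-HFD. Neither choline-deficient group overlapped control, and CD-HFD overlapped CD-LFD in 1 of 6 libraries. The log2 differences from control were 2.22 ± 0.26 on CD-HFD (adjusted p = 4.7e-09, edgeR) and 1.32 ± 0.26 on CD-LFD (adjusted p = 2.2e-04, edgeR). CD-HFD exceeded CD-LFD by 0.90 ± 0.24 for Pdgfrb (adjusted p = 0.0051, edgeR) and by 1.36 ± 0.26 for Pdgfra (adjusted p = 1.4e-04, edgeR).

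Of the contractile genes, Acta2, which encodes alpha smooth muscle actin and is the usual marker of myofibroblasts, measured 0.307, 2.22 and 3.67 CPM on control, 2.39, 6.34 and 9.15 on CD-LFD, and 2.98, 6.89 and 11.2 with CD-HFD. A single library of 6 on CD-HFD, and 2 of 6 on CD-LFD, lay within the control range. The log2 difference was 1.67 ± 0.38 on CD-HFD (adjusted p = 3.8e-04, edgeR) and 1.34 ± 0.39 on CD-LFD (adjusted p = 0.0087, edgeR). The Acta2 counts were small, from 1 to 19 per library on control. Between CD-HFD and CD-LFD the difference was 0.33, with a 95% interval of -0.33 to 0.99.

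Des encodes desmin, the intermediate filament of muscle and of rodent stellate cells. It measured 2.46, 6.06 and 11.9 CPM on control, 7.18, 10.6 and 18.1 on CD-LFD, and 11.6, 15.2 and 22.2 with CD-HFD, with 1 of 6 CD-HFD and 3 of 6 CD-LFD libraries inside the control range. The log2 differences were 1.28 ± 0.28 on CD-HFD (adjusted p = 1.9e-04, edgeR) and 0.83 ± 0.28 on CD-LFD (adjusted p = 0.024, edgeR). The CD-LFD call for Des was lost in 5 of 12 fits that each left out 1 library, the weakest without WT CD-LFD replicate 5 (adjusted p = 0.099, edgeR).

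Myl9, the regulatory light chain of smooth muscle and non-muscle myosin, measured 1.54, 2.27 and 6.11 CPM on control, 2.25, 3.43 and 5.72 on CD-LFD, and 1.37, 3.64 and 5.02 with CD-HFD. The 3 groups overlapped throughout. The log2 difference on CD-HFD was 0.12, with a 95% interval of -0.55 to 0.79 (adjusted p = 0.79, edgeR), so that a rise of the size seen for Acta2 lay outside its interval.

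Tagln encodes transgelin, an actin-binding protein of smooth muscle. It had 0 to 47 counts per library, a median of 2 and 167 in all, with 10 or more in only 3 libraries, and 2 libraries at 0. Pooled counts were 12 on control and 15 on CD-HFD in WT, a CPM ratio of 0.596 with an exact 95% counting interval of 0.260 to 1.39. The 5 other diet ratios, from 0.863 to 1.48, also had intervals that spanned 1, so no difference was detectable at this depth. The WT CD-LFD ratio of 1.01 rested on 1 library, the deepest: without replicate 3 the 55 counts became 8 and the ratio 0.520, with an interval of 0.184 to 1.38. On GRCm38 (GENCODE M21) Tagln exons share 1241 bases with Gm48529 and 108 bases with Pcsk7 on the opposite strand; the libraries were strand-specific, and the strand setting of the counting is not given in the sources used here. Exons of Des (220 bases with Gm15179), Pdgfra (456 bases with Gm42802), Loxl2 (301 bases with Gm27177) and Lox (30 bases) also face another gene, and their counts carry the same limit.

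Lrat encodes lecithin retinol acyltransferase, the marker of the vitamin A-storing state. It measured 6.6, 13.1 and 19.5 CPM on control, 9.19, 11.9 and 17.6 on CD-LFD, and 5.30, 9.40 and 20.6 with CD-HFD. All 3 ranges overlapped, and the CD-HFD group had both the lowest and the highest library. The log2 difference on CD-HFD was -0.36, with a 95% interval of -0.98 to 0.25 (adjusted p = 0.34, edgeR), and it became 0.16 when libraries were scaled by their size alone. The log2 ratio of Pdgfrb to Lrat in the same library was -0.72 ± 0.86 (SD, n = 6) on control, 0.76 ± 0.54 on CD-LFD and 1.98 ± 0.53 on CD-HFD. Its lowest CD-HFD value, 1.40, lay above the highest control value, 0.84; the ratio follows from the values already given and was not tested.

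Of the enzymes of collagen crosslinking, Lox encodes lysyl oxidase, which oxidises lysines of collagen and elastin so that fibres crosslink. On control 4 of 6 WT libraries had 0 counts of Lox and the others 2 and 3, which is 0 to 0.511 CPM. It measured 0.668, 1.30 and 1.98 CPM on CD-LFD, and 2.70, 3.62 and 8.84 with CD-HFD, without overlap between any of the 3 diets. Pooled over libraries, 253 counts on CD-HFD against 5 on control gave a CPM ratio of 24.1, with an exact 95% counting interval of 10.2 to 74.9, and 131 against 5 on CD-LFD gave 5.77, with an interval of 2.41 to 18.1. Of the 5 control counts 3 came from replicate 3, and without it the ratios were 47.1 (12.9 to 391) and 11.3 (3.06 to 94.0). Of the 131 CD-LFD counts 81 came from CD-LFD replicate 3, the deepest library. Without that library 50 counts gave a ratio of 7.80 (3.13 to 25.1). CD-HFD exceeded CD-LFD by a log2 difference of 1.77 ± 0.38, given as a description only.

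Loxl2, a second lysyl oxidase that crosslinks collagen IV and fibrillar collagen, measured 0.922, 1.62 and 2.93 CPM on control, 3.19, 4.92 and 7.54 on CD-LFD, and 7.89, 10.7 and 12.4 with CD-HFD. The 3 diets formed 3 ranges with no overlap, in the order control, CD-LFD, CD-HFD. The log2 differences from control were 2.47 ± 0.27 (adjusted p = 4.3e-10, edgeR) and 1.40 ± 0.27 (adjusted p = 1.7e-04, edgeR), and CD-HFD exceeded CD-LFD by 1.07 ± 0.22 (adjusted p = 3.9e-04, edgeR).

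Tgfb1 encodes the ligand TGF-beta 1, made by macrophages, platelets and other cells as well as stellate cells. It measured 8.06, 11.6 and 12.3 CPM on control, 8.97, 11.3 and 12.6 on CD-LFD, and 19.4, 23.6 and 33.9 with CD-HFD. CD-LFD and control covered the same range, and every CD-HFD library lay above both. The log2 difference was 1.17 ± 0.19 on CD-HFD (adjusted p = 3.0e-06, edgeR), and on CD-LFD it was -0.01, with a 95% interval of -0.41 to 0.39. CD-HFD exceeded CD-LFD by 1.18 ± 0.19 (adjusted p = 7.4e-06, edgeR). With Pdgfra, Pdgfrb, Lox and Loxl2 it was 1 of 5 genes higher on CD-HFD than on CD-LFD in WT (13.7% of all genes), and 4 of the 9 had no overlap there (7.63% of all genes). Without Lox, 4 of 8 were higher and 3 had no overlap.

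With only the WT libraries of the 2 diets in the fit, Lox did not pass the count filter for CD-LFD, and 3 of the other 8 genes were called higher (8.38% of all genes in that fit), without Acta2 and Des. With the clock class as a term 4 were called higher on CD-LFD (11.4% of all genes), without Des and Pdgfra. On CD-HFD 7 were called under both settings. Scaling by library size alone moved the median log2 difference of all genes from -0.07 to 0.43 on CD-HFD and from -0.03 to 0.27 on CD-LFD. The split of called genes then went from 3496 higher of 7082 to 6813 of 7833 on CD-HFD, and from 2040 of 4117 to 4142 of 4879 on CD-LFD. Every gene of the 10 called higher was also higher under that scaling.

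The CD-HFD responses were measured again in each knockout against its own control group. In Ripk3KO 7 of 9 genes were higher (24.6% of all genes), 7 of the 9 had no overlap (20.6% of all genes), and in MlklKO 7 were higher (24.9% of all genes) with 6 of 9 not overlapping (22.2% of all genes). The 7 were Acta2, Des, Pdgfra, Pdgfrb, Lox, Loxl2 and Tgfb1 in each genotype, and Myl9 and Lrat were not called in any. Without Lox that is 6 of 8 in each genotype, with 6 not overlapping in Ripk3KO and 5 in MlklKO. Scaled by library size alone, Lrat was called in Ripk3KO (0.88, adjusted p = 0.030, edgeR) and Myl9 in MlklKO (1.06, adjusted p = 0.032, edgeR).

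Pdgfra measured 31.1, 26.2, 23.4 and 34.1 CPM in the 4 Ripk3KO CD-HFD libraries and 26.1, 40.8 and 44.5 in the 3 of MlklKO. The control ranges were 3.77 to 8.31 and 3.86 to 6.52, far below. The log2 differences were 2.42 ± 0.30 in Ripk3KO (adjusted p = 1.4e-08, edgeR) and 2.82 ± 0.32 in MlklKO (adjusted p = 1.3e-09, edgeR).

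Pdgfrb measured 41.6, 29.2, 31.6 and 35.2 CPM in Ripk3KO on CD-HFD, against 5.83 to 10.1 on control. In MlklKO it measured 27.3, 43.8 and 44.1 CPM against 7.88 to 27.1, so that the lowest CD-HFD library lay just above the highest control library, replicate 3. The log2 differences were 1.91 ± 0.28 in Ripk3KO (adjusted p = 3.2e-07, edgeR) and 1.49 ± 0.29 in MlklKO (adjusted p = 4.8e-05, edgeR).

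Of the crosslinking enzymes, Lox was near the counting floor on control in both knockouts, while Loxl2 had 5 to 16 counts per control library in Ripk3KO and 10 to 27 in MlklKO. Lox measured 3.83, 4.39, 4.63 and 3.75 CPM in Ripk3KO and 2.61, 4.31 and 8.13 in MlklKO on CD-HFD, with no control library above 0.481 and 0.292. Pooled CPM ratios were 23.5 (95% counting interval 10.6 to 65.0, 160 against 6 counts) and 33.0 (14.7 to 92.0, 109 against 6 counts). Loxl2 measured 7.49, 8.01, 8.57 and 8.70 CPM in Ripk3KO and 9.40, 14.6 and 13.5 in MlklKO, against 0.788 to 3.11 and 1.38 to 4.56 on control. The log2 differences of Loxl2 were 2.28 ± 0.28 (adjusted p = 9.3e-09, edgeR) and 2.17 ± 0.28 (adjusted p = 2.1e-08, edgeR).

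Tgfb1 measured 22.1, 23.2, 23.9 and 26.5 CPM in Ripk3KO and 33.4, 24.4 and 33.1 in MlklKO on CD-HFD. Control libraries held 3.77 to 12.4 and 7.45 to 15.7, below every CD-HFD library of the same genotype. The log2 differences were 1.35 ± 0.21 (adjusted p = 9.4e-07, edgeR) and 1.34 ± 0.22 (adjusted p = 3.1e-06, edgeR).

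Acta2 measured 4.0, 4.17, 7.69 and 3.92 CPM in Ripk3KO on CD-HFD, all above the control range of 0.481 to 2.84. In MlklKO it measured 5.05, 7.31 and 8.80 CPM, 1 of them inside the control range of 2.09 to 6.03. The log2 differences were 1.43 ± 0.41 (adjusted p = 0.0038, edgeR) and 1.11 ± 0.41 (adjusted p = 0.025, edgeR). The MlklKO call was lost in 3 of 9 fits that each left out 1 library, the weakest without CD-HFD replicate 4 (adjusted p = 0.13, edgeR).

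Des measured 17.1, 9.32, 10.4 and 9.73 CPM in Ripk3KO and 8.53, 16.6 and 15.2 in MlklKO on CD-HFD. The lowest of each lay above its control range of 4.57 to 8.94 and 3.73 to 8.29. The log2 differences were 0.90 ± 0.30 (adjusted p = 0.011, edgeR) and 1.15 ± 0.32 (adjusted p = 0.0028, edgeR), and without Ripk3KO CD-HFD replicate 1 the former had an adjusted p of 0.083 (edgeR).

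Lrat measured 6.33, 10.2, 17.0 and 15.2 CPM in Ripk3KO and 15, 12.9 and 13.1 in MlklKO on CD-HFD, against 5.31 to 14.3 and 5.66 to 20.6 on control. A pair of Ripk3KO libraries lay above their control range and all 3 of MlklKO inside it. Its log2 differences were 0.35 (95% interval -0.33 to 1.03) and 0.12 (-0.62 to 0.85). Those of Myl9 were 0.06 (-0.70 to 0.83) and 0.52 (-0.28 to 1.32), and neither gene passed the test.

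**Figure D2:**
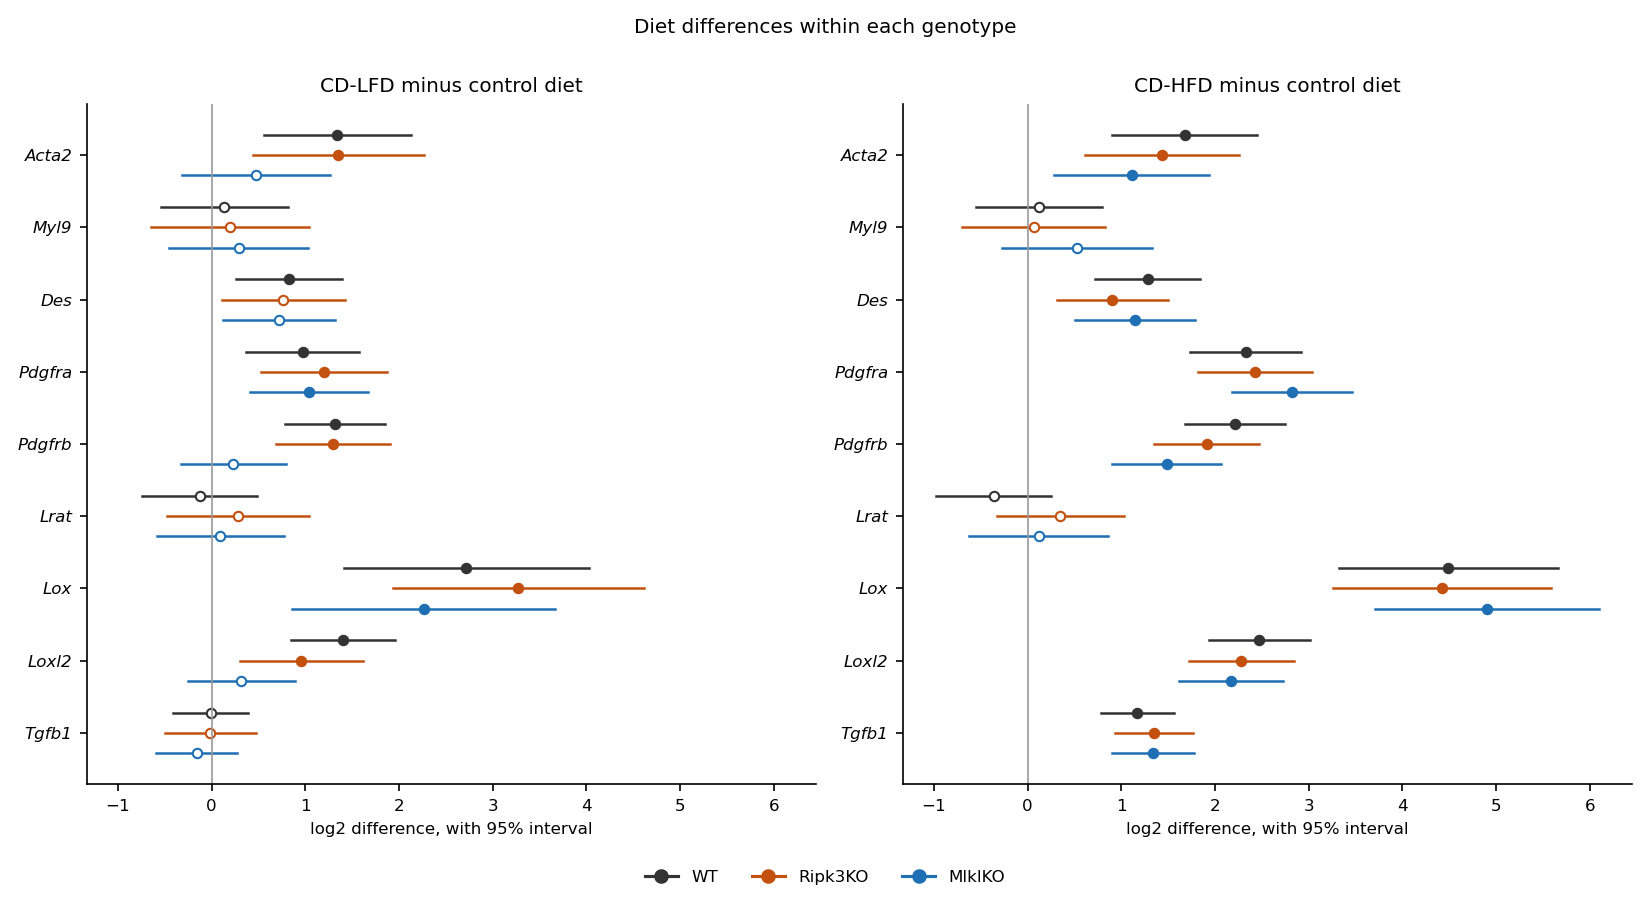
Log2 difference from control diet, with 95% intervals, for the 9 tested genes in each genotype, CD-LFD at left and CD-HFD at right. Filled points had an edgeR adjusted p under 0.05: 7 genes in each genotype on CD-HFD, but 6 in WT, 5 in Ripk3KO and 2 in MlklKO on CD-LFD.

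CD-LFD gave fewer calls in the knockouts. In Ripk3KO 5 of 9 genes were higher (14% of all genes) and 3 of the 9 had no overlap (10.9% of all genes). In MlklKO 2 were higher (19.7% of all genes, so the genes' share of 2 in 9 is near that background), and 1 of the 9 had no overlap (13.6% of all genes). The 5 in Ripk3KO were Acta2, Pdgfra, Pdgfrb, Lox and Loxl2, and the 2 in MlklKO were Pdgfra and Lox. Without Lox 4 and 1 of 8 were higher, and 2 and 0 had no overlap. The Ripk3KO count rested on 3 libraries, of which replicate 3 was high for Pdgfra (8.33, 4.43 and 22.4 CPM), Pdgfrb (22.3, 14.3 and 29.6), Des (7.29, 7.80 and 15.4) and Loxl2 (3.12, 2.32 and 4.08). Without that library Lox was the 1 gene called, so none of the other 8 was, and the Pdgfra adjusted p went from 0.0075 to 0.72 (edgeR). Without replicate 1, 3 genes were called. With only the compared groups in the fit Lox did not pass the count filter, and 2 of the other 8 genes were called higher (9.82% of all genes in that fit), Acta2 and Pdgfrb.

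In the same Ripk3KO libraries Acta2 measured 5.42, 4.22 and 4.53 CPM, all above the control range, with a log2 difference of 1.35 ± 0.45 (adjusted p = 0.026, edgeR). The call was lost in 3 of 9 fits that each left out 1 library, the weakest without CD-LFD replicate 3 (adjusted p = 0.095, edgeR). Lox measured 1.87, 1.05 and 2.42 CPM, a pooled CPM ratio to control of 11.3 with a counting interval of 4.83 to 32.5. Tgfb1 measured 8.33, 7.38 and 11.7 CPM, inside the control range, with a log2 difference of -0.01 (95% interval -0.50 to 0.48).

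In MlklKO on CD-LFD Pdgfra measured 12, 15.2, 10.4 and 5.51 CPM, 3 of 4 above every control library, with a log2 difference of 1.04 ± 0.31 (adjusted p = 0.0085, edgeR). Lox measured 1.10, 0.745, 0.802 and 0.447 CPM, and 26 counts against 6 gave a ratio of 5.24, with a counting interval of 2.11 to 15.6. Without CD-LFD replicate 2 the Pdgfra difference was 0.84, with an adjusted p of 0.051 (edgeR). Des measured 11.8, 12.8, 7.70 and 7.60 CPM, 2 of 4 above the control range, with a difference of 0.72 ± 0.30 that just missed the threshold (adjusted p = 0.053, edgeR). It was called under 4 of 7 other settings and in 4 of 10 fits that each left out 1 library.

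Pdgfrb, called on CD-LFD in WT and Ripk3KO, measured 17.1, 19.5, 16.5 and 11.3 CPM in MlklKO against 7.88 to 27.1 on control. The 27.1 was control replicate 3; the other 5 control libraries held 7.88 to 15.4, below 3 of the 4. The log2 difference was 0.23 (95% interval -0.33 to 0.79), and 0.57 without that library (adjusted p = 0.083, edgeR). Loxl2 likewise measured 3.48, 3.73, 4.01 and 2.68 CPM, inside the control range of 1.38 to 4.56, with a difference of 0.32 (-0.25 to 0.88). Acta2 measured 4.92, 4.62, 4.33 and 4.32 CPM, with a difference of 0.47 (-0.32 to 1.27). They lay inside the control range of 2.09 to 6.03, but above the 2.09 to 3.45 of the 5 control libraries other than replicate 3, without which the difference was 0.77 (adjusted p = 0.13, edgeR).

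Whether the genotype changed the diet response is a separate test. For MlklKO on CD-LFD the interaction, which is the MlklKO response minus the WT response, was -1.09 ± 0.39 for Pdgfrb (adjusted p = 0.069, edgeR) and -1.08 ± 0.40 for Loxl2 (adjusted p = 0.12, edgeR). Both had an unadjusted p under 0.05 and neither passed the adjusted threshold, and without MlklKO control replicate 3 that of Pdgfrb was -0.75 (adjusted p = 0.19, edgeR). So 0 of 9 genes were called (8.45% of all genes were called in either direction). DESeq2 called 1, and leaving out a library in turn called between 0 and 2, the 2 without WT CD-LFD replicate 3. The other 3 interactions called 0 of 9 by edgeR and by DESeq2, with 0 at an unadjusted p under 0.05; the shares of all genes called were 0.0269% for Ripk3KO with CD-LFD, 0.478% for Ripk3KO with CD-HFD and 4.12% for MlklKO with CD-HFD. Their widest intervals were those of Lox, for example -2.39 to 2.26 for Ripk3KO with CD-HFD, and that of Tgfb1 in the same interaction was -0.40 to 0.75.

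Between the choline-deficient diets, Ripk3KO had 3 of 9 genes higher on CD-HFD (5.75% of all genes) and MlklKO 5 (14.6% of all genes), with 4 and 6 of 9 not overlapping (16% and 20.8% of all genes). Without Lox, 3 and 4 of 8 were higher, and 3 and 5 had no overlap. Pdgfra, Loxl2 and Tgfb1 were called in both knockouts, and Pdgfrb and Lox in MlklKO but not in Ripk3KO; the difference between genotypes in this contrast was not tested. For Lox, with 3 to 13 counts per CD-LFD library in MlklKO, the value is a description only. In MlklKO the log2 differences were 2.64 ± 0.53 for Lox, 1.85 ± 0.30 for Loxl2, 1.78 ± 0.34 for Pdgfra, 1.49 ± 0.24 for Tgfb1 and 1.25 ± 0.32 for Pdgfrb. In Ripk3KO they were 1.36 ± 0.26 for Tgfb1 (adjusted p = 4.1e-04, edgeR), 1.32 ± 0.32 for Loxl2 (adjusted p = 0.0057, edgeR) and 1.22 ± 0.35 for Pdgfra (adjusted p = 0.021, edgeR). The Pdgfra call was lost in 3 of 7 fits that each left out 1 library and with only the compared groups in the fit (adjusted p = 0.064, edgeR); its difference was 0.85 without CD-LFD replicate 2 (adjusted p = 0.21, edgeR) and 2.18 without replicate 3. Without replicate 2 only Tgfb1 was called.

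The knockouts were then compared with WT on the same diet. By edgeR 0 of 9 genes were called in 5 of the 6 comparisons, with 0 at an unadjusted p under 0.05 in those 5, and DESeq2 also called 0. The shares of all genes called in either direction were 4.47% for Ripk3KO on control, 1.1% for Ripk3KO and 2.56% for MlklKO on CD-LFD, and 0.377% for Ripk3KO and 0% for MlklKO on CD-HFD. The exception was Pdgfrb on control, higher in MlklKO by 0.70 ± 0.27 (adjusted p = 0.046, edgeR; 27.1% of all genes were called in either direction and 13% higher). It measured 7.88, 10.7 and 27.1 CPM there (lowest, median, highest, n = 6), the 27.1 being replicate 3, against 3.65, 7.71 and 12.9 in WT, and 2 of 6 lay above every WT library. The call was lost in 5 of 12 fits without 1 library (adjusted p = 0.29 without MlklKO control replicate 3, edgeR), and under 4 other settings.

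**Figure D3:**
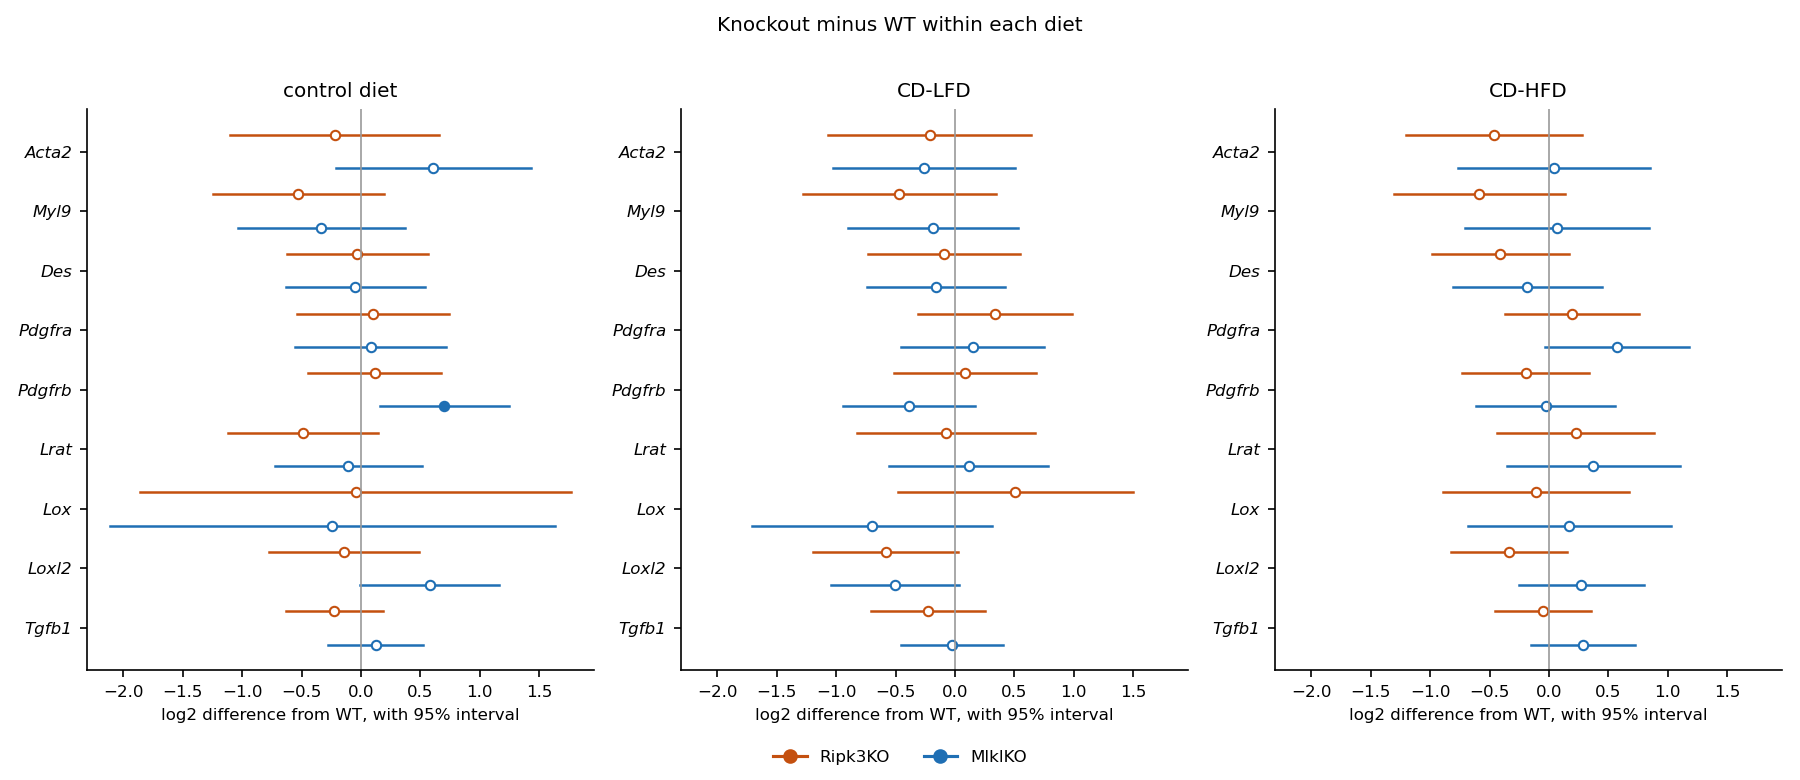
Log2 difference from WT on the same diet, with 95% intervals, for Ripk3KO and MlklKO. All points are open (not called) except Pdgfrb in MlklKO on control, at 0.70.

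These intervals set what could have been seen. On CD-HFD the Ripk3KO minus WT interval was -0.45 to 0.36 for Tgfb1, -0.73 to 0.34 for Pdgfrb and -1.21 to 0.28 for Acta2, and the MlklKO minus WT interval was -0.15 to 0.73 for Tgfb1, -0.61 to 0.56 for Pdgfrb and -0.04 to 1.18 for Pdgfra. Levels of a size between these bounds cannot be told from no difference with 3 or 4 knockout libraries.

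The genes also varied among libraries of the same group. Over 44 libraries, with each gene's group mean removed, 18 of the 36 pairs of tested genes were correlated at an adjusted p under 0.05 (permutation within groups, Benjamini-Hochberg over 36 pairs), and 0 of these were negative. Each of the 18 had an r of at least 0.41, which 9.66% of all pairs of the 14862 genes tested reached. The strongest was Pdgfrb with Loxl2 (r = 0.66, adjusted p = 0.0011, rho = 0.72, permutation), and it was 0.68 without the 2 libraries farthest from the Pdgfrb median. Des with Pdgfra (r = 0.62, rho = 0.64), Acta2 with Myl9 (r = 0.61, rho = 0.57) and Pdgfra with Pdgfrb (r = 0.60, rho = 0.68) followed, each at an adjusted permutation p of 0.0011 for r. Without the 2 farthest libraries these were 0.61, 0.55 and 0.57.

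Acta2 and Myl9, the contractile genes whose upstream sequences are printed above, thus varied together among libraries of a group, while Acta2 was called between diets and Myl9 was not; the difference of their diet responses was not tested. Lrat, the storage gene, formed 0 of the 18 pairs, and its 8 correlations lay between -0.06 and 0.28. By diet, Pdgfra and Pdgfrb correlated at 0.39 in 18 control, 0.91 in 13 CD-LFD and 0.92 in 13 CD-HFD libraries, and Acta2 and Myl9 at 0.67, 0.30 and 0.81; differences between diets were not tested. All genes share the library's depth and scaling: the correlation of each gene with log2 total counts within groups was -0.16 to 0.05, and scaling by library size alone gave 27 pairs in place of 18. With a prior count of 0.5 in place of 2, 13 pairs passed, and without the deepest library 14.

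**Figure D4:**
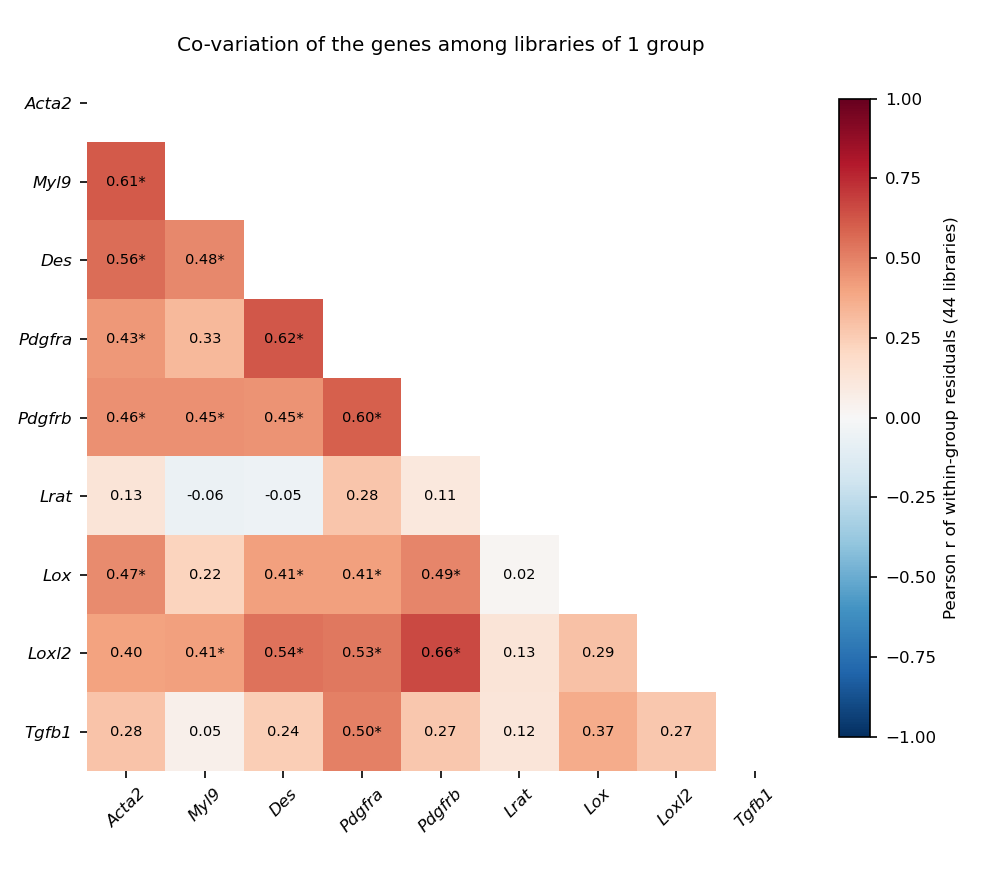
Pearson correlation of log2 CPM residuals (each group's mean removed) between pairs of the 9 tested genes over 44 libraries, on a colour scale from -1 to 1. Asterisks mark the 18 pairs with an adjusted permutation p under 0.05, none of which involves Lrat.

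Genes nearest in their pattern over the 9 group means were found by the root-mean-square (RMS) difference of centred log2 CPM, among 11106 candidates. For Pdgfra the nearest was Fam129a (0.0755) and then Unc5b, a netrin receptor (0.124). For Pdgfrb they were Tulp3 (0.135) and Fbln2, the matrix protein fibulin-2 (0.143), and for Loxl2 Sorl1 (0.133) and Ahnak (0.150). Acta2 had the poorest match after Lox, with Trim68 (0.191) and Fkbp7 (0.195). For Lox they were Ltb, the cytokine lymphotoxin beta (0.209), and Ccdc80 (0.213), for Des Srgap2 (0.0913) and Mfsd10 (0.103), and for Tgfb1 Me2, a mitochondrial malic enzyme (0.137), and the kinase Sgk1 (0.138). Myl9 was nearest to Arap3 (0.123) and Kmt2a (0.136), and Lrat to Invs (0.0891) and Tfcp2 (0.115), patterns with little change between groups.

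The other genes of these pathways were read from 7 lists, each without the 10 genes. The shares of all genes tested to read them against are, on CD-HFD, 23.5% higher and 24.1% lower in WT, 24.6% and 21.7% in Ripk3KO, and 24.9% and 20.3% in MlklKO. In WT on CD-HFD the matrix genes of activated fibroblasts had 11 of 13 tested genes higher and 0 lower, with a median log2 difference of 2.80 against -0.07 for all genes. Col1a1 and Col1a2, the chains of type I collagen, had means of 7.72 CPM on control and 206 on CD-HFD (log2 difference 4.67 ± 0.36, adjusted p = 6.5e-14, edgeR) and of 13.5 and 188 CPM (3.79 ± 0.30, adjusted p = 1.5e-13, edgeR). In Ripk3KO and MlklKO on CD-HFD 12 of 13 of these genes were higher and 1 lower. On CD-LFD 9, 10 and 8 of 13 were higher in WT, Ripk3KO and MlklKO, against 13.7%, 14% and 19.7% of all genes.

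PDGF ligands and the coreceptor had 4 of 5 higher on CD-HFD in WT. Pdgfb, the ligand of the beta receptor, measured 0.922 to 5.93 CPM on control and 11.6 to 23.7 on CD-HFD in WT, 1.47 to 2.61 and 10.1 to 13.8 in Ripk3KO, and 0.646 to 2.64 and 13.2 to 16.1 in MlklKO. None of these pairs of ranges overlapped. In WT its log2 difference was 2.70 ± 0.30 (adjusted p = 1.3e-09, edgeR), and that of Pdgfd, another beta receptor ligand, was 2.65 ± 0.43 (adjusted p = 2.4e-06, edgeR).

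Ligands, activators, receptors and targets of TGF-beta had 17 of 29 higher and 0 lower on CD-HFD in WT, 16 and 1 in Ripk3KO and 17 and 0 in MlklKO. Ltbp2 and Ltbp3, of the family of latent TGF-beta binding proteins, rose by 3.93 ± 0.45 (adjusted p = 1.7e-09, edgeR) and 2.73 ± 0.29 (adjusted p = 2.3e-10, edgeR). On CD-LFD, where Tgfb1 itself was at the control level, 10 of 29 were higher and 2 lower in WT, against 13.7% and 14% of all genes.

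Collagen crosslinking and processing genes other than Lox and Loxl2 had 8 of 15 higher and 3 lower on CD-HFD in WT, with a median of 0.37. Serpinh1, the collagen chaperone HSP47, rose by 2.75 ± 0.33 (adjusted p = 4.6e-09, edgeR), and Adamts2, the procollagen N-proteinase, by 2.37 ± 0.28 (adjusted p = 4.4e-09, edgeR). The contractile apparatus and its regulators had 10 of 21 higher and 2 lower, with a median of 0.61. The members with the lowest adjusted p were the intermediate filament gene Vim (3.08 ± 0.30, adjusted p = 4.0e-11, edgeR) and Flna, the actin crosslinker filamin A (1.99 ± 0.19, adjusted p = 3.4e-11, edgeR), which many cell types make.

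Genes of the resting stellate cell had 8 of 15 higher and 2 lower on CD-HFD in WT. Cygb, the globin that marks stellate cells, measured 8.14 to 16.9 CPM on control, 14.9 to 34.6 on CD-LFD and 41.3 to 74.5 on CD-HFD in WT, and rose by 2.40 ± 0.23 (adjusted p = 3.2e-11, edgeR). Adamtsl2 rose by 3.06 ± 0.32 (adjusted p = 2.8e-10, edgeR). Retinoid storage and metabolism, the pathway of Lrat, had 2 of 15 higher and 4 lower, with a median of -0.39; the share lower is near the 24.1% of all genes. Of its members, Rdh10, which oxidises retinol, fell by 0.86 ± 0.17 (adjusted p = 4.0e-05, edgeR) and Bco2, a carotenoid-cleaving enzyme, fell by 1.26 ± 0.24 (adjusted p = 3.0e-05, edgeR). In MlklKO this list had 4 higher and 1 lower on CD-HFD, the share higher being near the 24.9% of all genes, and a difference from WT was not tested for the list.

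**Figure D5:**
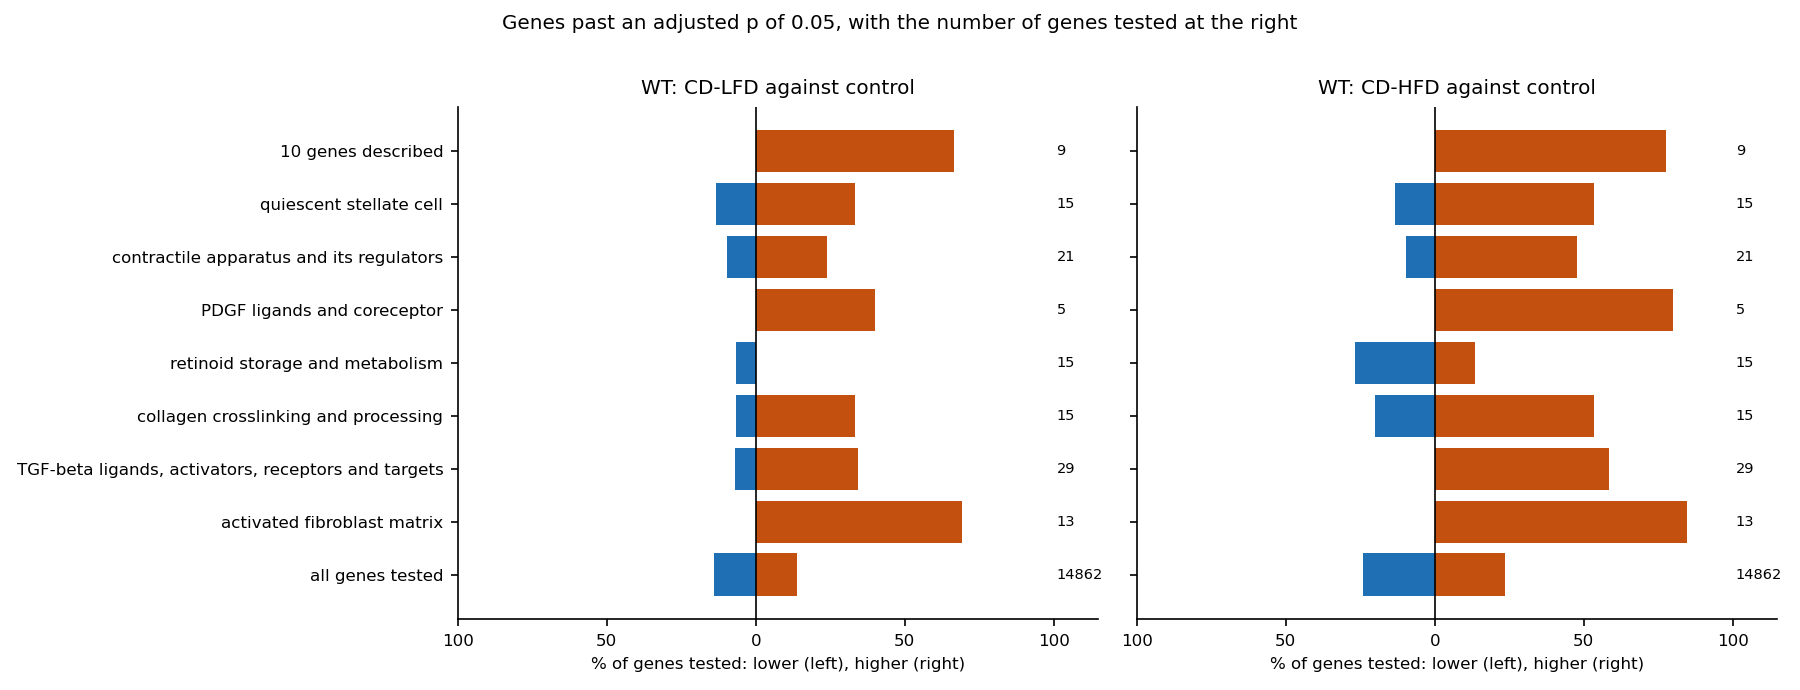
Percent of tested genes called lower (left, blue) and higher (right, orange) in WT on CD-LFD and CD-HFD against control, for the 10 genes described, 7 pathway lists and all genes; the number tested stands at the right of each bar. On CD-HFD 11 of 13 matrix genes were higher, against 2 of 15 genes of retinoid storage.

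RNA of other cell types moved with the same diets, and its part in these results was not tested. The summed CPM of the 10 stellate cell markers was 111 to 167 on control, 135 to 194 on CD-LFD and 182 to 308 on CD-HFD in WT. These markers include Pdgfrb, Des and Lrat; the other 7 summed to 88.1 to 128, 99.5 to 135 and 136 to 217. On control and CD-HFD, the 8 portal fibroblast markers summed to 5.53 to 14.5 and 29.6 to 99.3 (5 of 5 tested were higher), the 8 macrophage markers to 111 to 179 and 478 to 1095 (6 of 8 higher), and the 6 cholangiocyte markers to 44.8 to 83.1 and 678 to 1127 (6 of 6 higher). Single genes carried much of these sums: without Gpnmb the macrophage markers summed to 110 to 179 and 270 to 430, and without Spp1 the cholangiocyte markers to 15.4 to 34.7 and 80.9 to 122. T cell markers summed to 2.44 to 5.02 and 11.6 to 28 (5 of 6 higher), and those of mesothelium to 1.38 to 10.2 and 4.51 to 11.8 (2 of 3 higher). Hepatocyte markers summed to 87765 to 154398 and 54737 to 91863 (5 of 6 lower), and sinusoidal endothelium to 157 to 204 and 69.8 to 119 (5 of 6 lower).

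Vascular smooth muscle shares Acta2, Myl9, Tagln and Des with myofibroblasts. Its 8 markers summed to 10.4 to 29.8 CPM on control and 17.4 to 25.6 on CD-HFD in WT, overlapping, with 1 of 5 tested genes higher, near the 23.5% of all genes. In Ripk3KO and MlklKO 3 of 5 were higher on CD-HFD, against 24.6% and 24.9% of all genes. Its regulator Myocd was at 0 in 37 libraries, Cnn1 in 16 and Actg2 in 18, while Myh11 was detected in all 44. Skeletal muscle markers summed to no more than 3.82 CPM in any WT library.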

How the data were processed

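Raw read counts per Ensembl gene were deposited by the authors, not normalised, in 1 table of 44 liver libraries. The labels' protocols name total RNA and a strand-specific library kit. The submitters' processing notes name GRCm39 (mm39), FastQC, STAR, HTSeq, edgeR and limma, without versions. Symbols were matched for 34373 of 35249 genes; the other 876 held 0.0838% of counts.

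Genes were kept by filterByExpr (minimum count 10), which left 14862 with 99.8% of counts. The test was edgeR 4.0.16 (R 4.3.3), quasi-likelihood with TMM over all 44 libraries, 1 mean per group, in 19 contrasts, with Benjamini-Hochberg adjustment in each. CPM use TMM, except those of Ripk3 and Mlkl, which use library totals. Log2 CPM for patterns and residuals has a prior count of 2, and residuals were permuted within groups 100000 times. Exact counting intervals (95%) take in counting error alone, because the reads carry no molecular identifiers and may repeat a molecule.

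From each pathway list the 2 genes with the lowest adjusted p in WT CD-HFD against control were named, and for each of the 10 genes the 2 nearest in pattern. The genes and lists were chosen with earlier results of these data known. Sequences and overlaps use GRCm38, and no coordinate was converted. Replicates of a group were not duplicates (chi-square per degree of freedom 6.95 to 116). The edgeR fit was tested on simulated data.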

Additional observations from a re-analysis of the deposited data

Results flagged for a closer look

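In 5 of 70 groups of values (a gene in a group of 4 to 6 libraries) the highest or lowest library stood apart from the rest, beyond Dixon's 95% limit for its gap. Chance alone gives about 1 in 20 such groups. All 5 were in knockout groups, which also supplied more of the groups examined than WT did. Acta2 measured 7.69 CPM in Ripk3KO CD-HFD replicate 3, against 3.92 to 4.17 in the other 3 libraries, and 6.03 CPM in MlklKO control replicate 3, against 2.09 to 3.45. Des measured 17.1 CPM in Ripk3KO CD-HFD replicate 1, against 9.32 to 10.4. Pdgfra measured 8.31 CPM in Ripk3KO control replicate 3, against 3.77 to 5.31, and Pdgfrb 5.83 CPM in Ripk3KO control replicate 4, the lowest there, against 9.22 to 10.1.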

How the results depend on the processing

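The count of called genes in each comparison, the 9 genes' differences from control, their called differences between CD-HFD and CD-LFD, Pdgfrb of MlklKO against WT on control, and Pdgfrb and Loxl2 in the MlklKO interaction with CD-LFD were recomputed with relative log expression (RLE) size factors, library size alone, no count filter, DESeq2 1.42.0, only the compared groups, the replicate number as a block, the clock class as a term, and without WT control replicates 5 and 6, and with each library left out. Of 48 called results of single genes, 32 passed in every fit, 2 more (Lox on CD-LFD in WT and Ripk3KO) passed in every fit that gave them a value, and all 48 kept their direction. Of the 48, 12 were lost in at least 1 fit without a library and 7 under at least 1 other setting. Both the 48 and the 32 include calls of Lox, which are no test support. Of 22 uncalled results 6 were called in at least 1 fit, among them Lrat and Myl9 in 1 knockout each on CD-HFD and Des in both on CD-LFD. The called Pdgfrb difference of MlklKO on control gave 0 calls under RLE, library size, only the groups compared, and without WT control replicates 5 and 6. The MlklKO interaction with CD-LFD gave 1 call under library size and under DESeq2. Only the compared groups gave 3 calls for WT, 2 for Ripk3KO and 2 for MlklKO on CD-LFD, where Lox was not tested because it did not pass the count filter; in MlklKO the 2 were Pdgfra and Des. Over all genes, calls on CD-LFD went from 4117 to 1814 in WT and from 3576 to 2252 in Ripk3KO under that setting, and to 6381 in WT without WT control replicates 5 and 6. Without each library in turn, calls ran from 0 to 1 for MlklKO on control, 0 to 2 for its CD-LFD interaction, 1 to 6 for Ripk3KO on CD-LFD, 1 to 3 for Ripk3KO CD-HFD against CD-LFD and 1 to 3 for MlklKO on CD-LFD.

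Of the 22 uncalled results 11 changed direction in at least 1 fit; the cause was not tested. Tgfb1 on CD-LFD gave, in WT, 0.021 under RLE, 0.30 under library size, 0.052 without the filter, 0.020 by DESeq2, 0.063 without WT control replicates 5 and 6 and 0.036 with only the groups compared. In Ripk3KO it gave 0.039 under RLE, 0.32 under library size, 0.0020 without the filter, 0.045 by DESeq2 and 0.040 with only the groups compared. Library size alone gave 0.16 for Lrat on CD-HFD and 0.20 on CD-LFD in WT, and the clock term -0.084 for Myl9 on CD-LFD in WT. Leaving out libraries gave, in WT, -0.032 to 0.39 for Myl9 on CD-HFD, -0.041 to 0.41 for Myl9, -0.27 to 0.014 for Lrat and -0.086 to 0.071 for Tgfb1 on CD-LFD. In Ripk3KO they gave -0.22 to 0.27 for Myl9 on CD-HFD, and -0.34 to 0.51 for Myl9, -0.059 to 0.46 for Lrat and -0.27 to 0.13 for Tgfb1 on CD-LFD. In MlklKO they gave -0.039 to 0.32 for Lrat on CD-HFD and -0.061 to 0.30 on CD-LFD.

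Replicate numbers were not taken as pairs, because not every pair of libraries with the same number had residuals correlated above 0.1: across the diets of a genotype this held for 11 of 18 pairs in WT, 3 of 10 in Ripk3KO and 2 of 10 in MlklKO. In WT all pairs of replicate 3 (0.38 to 0.49) and of replicate 6 (0.42 to 0.54) were above it and those of replicate 1 (-0.15 to 0.057) were not, and in 16 of 36 comparisons a library correlated best with its own number, a hint from the data and not from the labels. With the number as a block, 1 term shared by all genotypes, Tgfb1 was 0.0021 in WT on CD-LFD and Myl9 was -0.0075 in Ripk3KO on CD-HFD. MlklKO on CD-LFD then had 3 calls in place of 2, with Des added, and the counts in WT were 7 and 6, as without the block. A shared term cannot represent a pairing present in WT alone, so such a pairing was not tested. Depth limits Tagln, with a median of 2 counts, and Lox on control, with no more than 3.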
